A study of Mus musculus with 12 samples.

Results

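The 7 carbonic anhydrase genes Car1, Car2, Car4, Car8, Car9, Car12 and Car13 were followed across tissues and regions of the mouse small intestine. They were found by symbol among 19012 gene symbols, and all 7 were present. The genes were chosen from these same expression values, out of 16 family genes in the tables, so their levels and differences are given as a description, with standard errors and no p-values. Poly(A) RNA was sequenced in 12 libraries that fall into 9 groups, 3 tissues from each of duodenum, jejunum and ileum. The organoid groups are epithelial cultures that were started from small intestinal crypts and sampled after 12 weeks, with 1 library per origin. The villus groups were freshly isolated villi, also with 1 library per origin, and the crypt groups were freshly isolated crypts with 2 libraries per origin. No genetic change or drug treatment is labelled in any group, and for the strain and age of the mice the sources used here give nothing. Since no label ties a library to an animal of its own, p-values below reflect the spread between libraries, which may be technical. In comparisons over all 12 libraries this spread also holds regional steps that differ between tissues. The design asks whether cultures keep the expression differences of the stretch of intestine from which they were started.

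Carbonic anhydrases interconvert carbon dioxide and water with bicarbonate and a proton. In intestinal epithelium the cytosolic enzymes supply bicarbonate and protons to exchangers of the apical membrane, and membrane-bound enzymes with an outward catalytic domain act on the same reaction at the cell surface. Bicarbonate secretion protects the duodenum from gastric acid, and paired exchange of sodium for protons and of chloride for bicarbonate absorbs salt along the rest of the intestine. Car4 is held at the outer surface by a lipid anchor, while Car9 and Car12 span the membrane. Car1, Car2 and Car13 are cytosolic, and Car8 is a family member that has lost catalytic activity.

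Levels are given in RPKM, where reads are divided by exon length and library depth, which can be compared between genes per length. The libraries held 5268480 to 18591819 reads by the step size of their values, so 1 read in a 2-kb gene was worth 0.0269 to 0.0949 RPKM. The share of reads inside annotated genes was 58.8% to 75.0% in organoids, 67.8% to 75.8% in villi, 44.3% to 52.3% in the crypt libraries numbered 1 and 60.1% to 67.6% in those numbered 2. The tissue labels were checked against markers. The summed level of 6 stem cell markers, Lgr5 and Olfm4 among them, was 520 to 695 RPKM in organoids, 9.75 to 32.9 RPKM in villi and 83.0 to 1157 RPKM in crypts. Olfm4 alone held 420 to 608 RPKM of this sum in organoids and 33.4 to 1063 RPKM in crypts. Axin2 stood apart, with 4.67 to 10.2 RPKM in organoids, 5.0 to 19.6 RPKM in villi and 13.1 to 26.9 RPKM in crypts. Every other gene of the list was lower in all villi than in all crypts and organoids. The summed level of 12 enterocyte markers was 2782 to 5021 RPKM in organoids, 50070 to 99832 RPKM in villi, 750 to 1903 RPKM in crypts numbered 1 and 8460 to 23962 RPKM in crypts numbered 2. The crypt libraries numbered 2 therefore stand apart from those numbered 1 in both shares and enterocyte markers, at all 3 origins. Apoa1 and Apoa4 held much of the enterocyte sum in villi, at 25264 to 43188 and 2368 to 46871 RPKM. In this list 2010204N08Rik ran the other way, at 121 to 454 RPKM in organoids and 39.7 to 51.3 RPKM in villi. Ileal organoids also exceeded ileal villi in Fabp1 (266 against 137 RPKM) and Slc2a2 (13.1 against 2.51 RPKM). Every other enterocyte marker was lower in organoids than in villi of the same origin. In bulk tissue, fewer cells of a type and less RNA per cell cannot be told apart.

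The carbonic anhydrase with the highest level differed between libraries. Car9 led in duodenal and jejunal organoids and Car13 in ileal organoids. Car2 led in duodenal villi and Car4 in jejunal and ileal villi. Car4 led in 5 of 6 crypt libraries, and Car9 led in the remaining one, ileal crypt library 1. The 7 genes summed to 103 to 141 RPKM in organoids, 67.3 to 161 RPKM in villi and 98.0 to 252 RPKM in crypts. The membrane-bound enzymes Car4, Car9 and Car12 held 36.0% to 59.1% of this sum in organoids, 36.2% to 74.1% in villi and 62.6% to 86.8% in crypts.

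**Figure D1:**
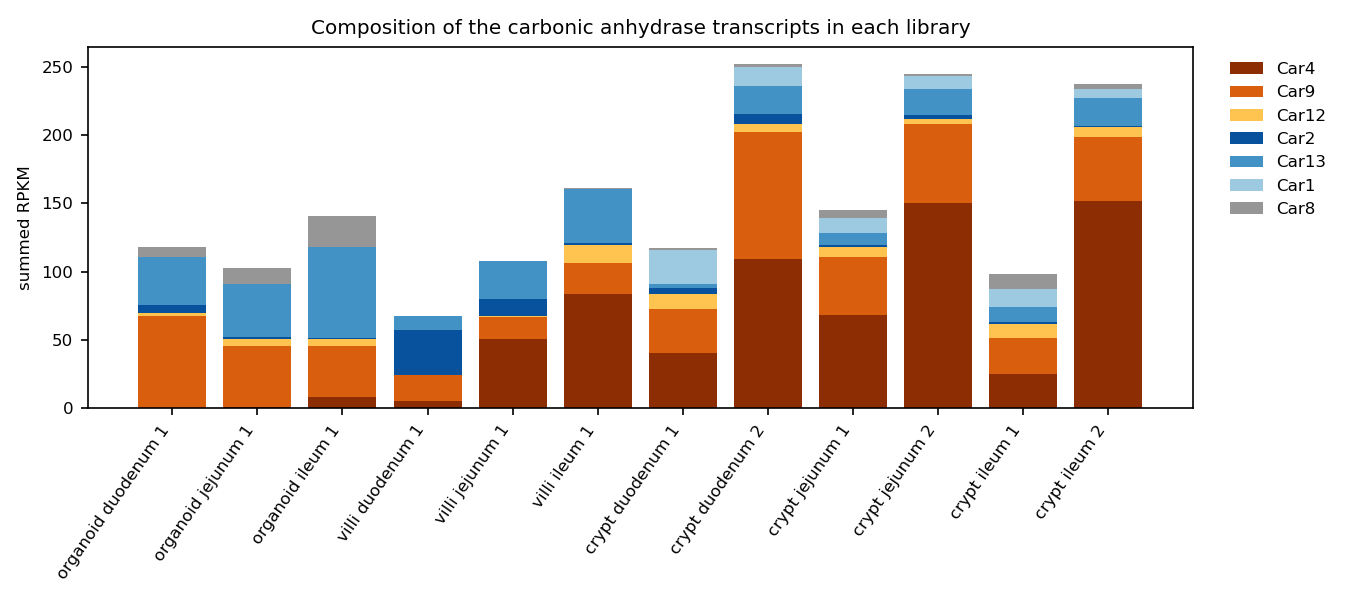
Stacked bars give the RPKM of the 7 genes in each of the 12 libraries, with membrane-bound enzymes in brown to yellow, cytosolic enzymes in blue and Car8 in grey. Car4 was at most 8.0 RPKM in organoids, and duodenal villi were led by Car2, at 32.9 RPKM.

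Among the membrane-bound enzymes, Car4 was lowest in organoids and, in organoids and villi, lowest in duodenum. Car4 lies on chromosome 11, at 84771344 to 84779542 of build mm9. It had 0 reads in duodenal organoids, 0.584 RPKM in jejunal organoids and 8.0 RPKM in ileal organoids. In villi it had 5.29, 50.8 and 83.6 RPKM in duodenum, jejunum and ileum. In crypt libraries 1 and 2 it had 40.1 and 109 RPKM in duodenum, 68.1 and 150.1 RPKM in jejunum, and 24.8 and 151 RPKM in ileum. The organoid values lay below every villus value of the same origin and below every crypt value, while ileal villi lay between the 2 ileal crypt libraries. With 3 reads per library as the floor for a count of 0, which is 0.231 RPKM here, duodenal organoids were at least 173-fold lower than duodenal crypt library 1 and at least 472-fold lower than library 2. The mean over origins was 2.86 ± 4.46 RPKM in organoids, 46.6 ± 39.3 RPKM in villi and 90.6 ± 17.4 RPKM in crypts (SD, n = 3 origins). The means of villi and crypts differed by about their spread, which holds the steps between origins. Duodenal and jejunal villi lay below both crypt libraries of their origin.

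Car4 was higher toward the ileum in organoids and in villi. The ileal villus level was 15.8 times the duodenal one, with an exact 95% interval of 12.6 to 19.99 from reads, which covers counting error only, as do all intervals and floors here. Ileal organoids were at least 34.6-fold higher than duodenal organoids, from 132 reads in ileal and 0 reads in duodenal organoids, and 13.7 times the jejunal level (7.74 to 26.4), which rested on 13 reads. In crypts the ileum minus duodenum difference of Car4 was -0.10 on the log2(RPKM + 1) scale with a standard error of 0.93, and its sign turned to 0.61 without duodenal crypt library 2 and to 1.18 without ileal crypt library 1. Leaving out 1 library also unbalances the replicate numbers. Car4 was lower in ileum than in duodenum among crypt libraries numbered 1 and higher among those numbered 2.

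Car12 had its highest and its lowest level in villi. It lies on chromosome 9, at 66561548 to 66614651. It had 2.45, 5.20 and 5.61 RPKM in organoids of duodenum, jejunum and ileum. In villi it had 0.146, 0.683 and 13.0 RPKM in the same order. Crypt libraries 1 and 2 had 10.99 and 6.23 RPKM in duodenum, 7.39 and 3.84 RPKM in jejunum, and 9.71 and 7.82 RPKM in ileum. Duodenal and jejunal villi lay below all crypts and organoids, and ileal villi lay above every other library. The ileal villus level was 89.2 times the duodenal one (43.0 to 223), which rested on 7 duodenal reads, and 19.1 times the jejunal one (13.4 to 28.2). In organoids the ileal level was 2.29 times the duodenal one (1.81 to 2.92). The mean over origins was 4.42 ± 1.72 RPKM in organoids, 4.62 ± 7.29 RPKM in villi and 7.66 ± 1.78 RPKM in crypts (SD, n = 3 origins). The order of the 3 tissue means does not stand out from this spread, which in villi holds the steps between origins given above.

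Car9, a membrane-spanning enzyme that is a known target of the hypoxia-inducible factor, was the most evenly spread of the 3. It lies on chromosome 4, at 43519897 to 43526596. It had 67.1, 45.1 and 37.2 RPKM in organoids of duodenum, jejunum and ileum. In villi it had 18.9, 15.6 and 22.9 RPKM in the same order. Its crypt levels in libraries 1 and 2 were 32.7 and 92.9 RPKM in duodenum, 42.2 and 58.2 RPKM in jejunum, and 26.8 and 46.8 RPKM in ileum. All villi lay below all organoids and all crypts, while organoids lay within the range of crypts. The mean over origins was 49.8 ± 15.5 RPKM in organoids, 19.2 ± 3.65 RPKM in villi and 49.9 ± 13.0 RPKM in crypts (SD, n = 3 origins). Ileal organoids had 0.554 times the duodenal organoid level (0.510 to 0.601), and ileal villi had 1.21 times the duodenal villus level (1.07 to 1.37).

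The promoters of these 3 membrane-bound genes are shown because the tissue and regional differences above concern them, and because Car9 is a known hypoxia target. They are the 250 bases before the gene start in RefSeq's table on build GRCm38.p6, on the plus strand, and that table held 3 of the 7 genes. Capitals mark matches to the core ACGTG of the site for hypoxia-inducible factors, to AGATAA, a form of the site for Gata factors, or to TTTAT, the core of the site for Cdx factors, each searched on both strands. Car9 lies at chr4:43506776-43507025, Car12 at chr9:66713436-66713685 and Car4 at chr11:84957504-84957753.
Car9: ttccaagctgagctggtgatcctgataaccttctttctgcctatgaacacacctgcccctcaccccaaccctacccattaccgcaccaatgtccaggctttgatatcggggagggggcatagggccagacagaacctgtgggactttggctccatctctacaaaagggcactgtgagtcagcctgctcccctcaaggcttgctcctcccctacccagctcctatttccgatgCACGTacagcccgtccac
Car12: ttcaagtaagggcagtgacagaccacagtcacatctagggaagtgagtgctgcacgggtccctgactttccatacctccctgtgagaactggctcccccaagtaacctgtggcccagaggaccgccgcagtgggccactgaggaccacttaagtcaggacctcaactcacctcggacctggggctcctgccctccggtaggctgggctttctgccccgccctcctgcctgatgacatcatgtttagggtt
Car4: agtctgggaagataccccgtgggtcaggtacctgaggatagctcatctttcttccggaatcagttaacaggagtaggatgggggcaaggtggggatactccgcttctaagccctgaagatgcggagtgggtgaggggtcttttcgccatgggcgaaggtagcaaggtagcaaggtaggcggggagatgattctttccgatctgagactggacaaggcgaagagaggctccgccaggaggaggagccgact
The only match was in Car9, where ACGTG on the reverse strand, read here as CACGT, spans bases 18 to 14 before the start. Of 32536 promoters of this length, 16.7% hold ACGTG, 9.97% hold AGATAA and 37.2% hold TTTAT. These are letters in a window and not shown to be bound.

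Of the cytosolic enzymes, Car2, a highly active form found in many epithelia, was highest in duodenal villi and was lower in ileum than in duodenum in all 3 tissues. It lies on chromosome 3, at 14886425 to 14900769. It had 6.14, 1.05 and 0.568 RPKM in organoids of duodenum, jejunum and ileum. In villi it had 32.9, 12.6 and 1.2 RPKM in the same order. In crypt libraries 1 and 2 it had 4.35 and 6.82 RPKM in duodenum, 1.41 and 2.72 RPKM in jejunum, and 2.0 and 0.870 RPKM in ileum. Duodenal and jejunal villi lay above all other libraries, and ileal villi lay between the 2 ileal crypt libraries. The ileal level was 0.0925 times the duodenal one in organoids (0.0491 to 0.161, from 14 and 119 reads) and 0.0365 times in villi (0.0237 to 0.0539, from 26 and 770 reads). In crypts the ileum minus duodenum difference was -1.45 with a standard error of 0.41. The mean over origins was 2.59 ± 3.09 RPKM in organoids, 15.5 ± 16.0 RPKM in villi and 3.03 ± 2.24 RPKM in crypts (SD, n = 3 origins). The tissue means lay within the SD of villi, but that SD holds the steps between origins. Against crypt libraries 1 and 2 of the same origin, villi had 7.56 and 4.82 times the level in duodenum. The ratios were 8.92 and 4.63 in jejunum, and 0.600 and 1.38 in ileum.

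Car13, a cytosolic form expressed in several tissues, was highest in organoids. It lies on chromosome 3, at 14641775 to 14663001. It had 35.4, 38.8 and 66.8 RPKM in organoids of duodenum, jejunum and ileum. In villi it had 9.91, 28.0 and 39.7 RPKM in the same order. In crypts, libraries 1 and 2 had 2.53 and 20.7 RPKM in duodenum, 9.07 and 19.1 RPKM in jejunum, and 10.5 and 19.98 RPKM in ileum. Every organoid library lay above the villi of its origin and above all crypts, and duodenal villi lay between the duodenal crypt libraries. The mean over origins was 47.0 ± 17.2 RPKM in organoids, 25.9 ± 15 RPKM in villi and 13.6 ± 1.87 RPKM in crypts (SD, n = 3 origins). Ileum exceeded duodenum 1.89 times in organoids (1.74 to 2.05) and 4.00 times in villi (3.52 to 4.57).

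Car1, a cytosolic form abundant in red blood cells and colon, was found almost only in crypts. It lies on chromosome 3, at 14766213 to 14808364. It had 0 reads in duodenal and jejunal organoids and 3 reads, 0.182 RPKM, in ileal organoids. It had 0 reads in all 3 villus libraries, where 3 reads would be 0.192 to 0.207 RPKM. In crypt libraries 1 and 2 it had 25.1 and 14.0 RPKM in duodenum, 11.1 and 9.22 RPKM in jejunum, and 13.5 and 6.75 RPKM in ileum, 761 reads in all. Every crypt library lay far above every organoid and villus library. Against the floor of 3 reads per library, villi were at least 32.6-fold lower than the crypt libraries of their origin and up to at least 131-fold lower, and duodenal and jejunal organoids at least 60.5-fold to at least 108-fold lower. Ileal organoids had 0.0135 times the level of ileal crypt library 1 (0.00276 to 0.0403) and 0.0270 times that of library 2 (0.00545 to 0.0815). Red blood cell markers were highest in villi, with a summed level over 7 genes of 0.434 to 1.56 RPKM in organoids, 13.4 to 45.1 RPKM in villi and 0.098 to 2.44 RPKM in crypts, and 3 of the 7 were at 0 in all crypt libraries.

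Car1, Car2 and Car13 lie in 1 cluster with Car3 on chromosome 3, in the order Car13, Car1, Car3 and Car2 over 259 kb, with no other symbol of the tables between them. The 4 neighbours differed in pattern. Car13 was highest in ileal organoids, Car1 in duodenal crypts, Car2 in duodenal villi and Car3 in ileal villi. Across the 12 libraries, which share tissues and origins, Pearson's r of log2(RPKM + 1) was -0.70 between Car1 and Car13, -0.18 between Car1 and Car2 and -0.31 between Car2 and Car13, as a description. How reads that fit several family members were assigned was not given in the sources used here.

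Car8, the form without catalytic activity, which in brain binds the inositol trisphosphate receptor, was highest in organoids and lowest in villi. It lies on chromosome 4, at 8068639 to 8166187. It had 6.65, 12.0 and 22.8 RPKM in organoids of duodenum, jejunum and ileum. In villi it had 0.187, 0.423 and 0.808 RPKM in the same order. In crypt libraries 1 and 2 it had 1.89 and 2.19 RPKM in duodenum, 5.85 and 1.74 RPKM in jejunum, and 10.7 and 3.64 RPKM in ileum. At each origin organoids lay above both crypt libraries and villi lay below them. Organoids exceeded villi of the same origin 35.6 times in duodenum (21.0 to 65.7), 28.3 times in jejunum (19.9 to 41.9) and 28.2 times in ileum (21.6 to 37.5). The level stepped up from duodenum through jejunum to ileum in both tissues, and ileum exceeded duodenum 3.42 times in organoids (3.07 to 3.82) and 4.32 times in villi (2.37 to 8.41). The mean over origins was 13.8 ± 8.21 RPKM in organoids, 0.473 ± 0.313 RPKM in villi and 4.33 ± 2.60 RPKM in crypts (SD, n = 3 origins).

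**Figure D2:**
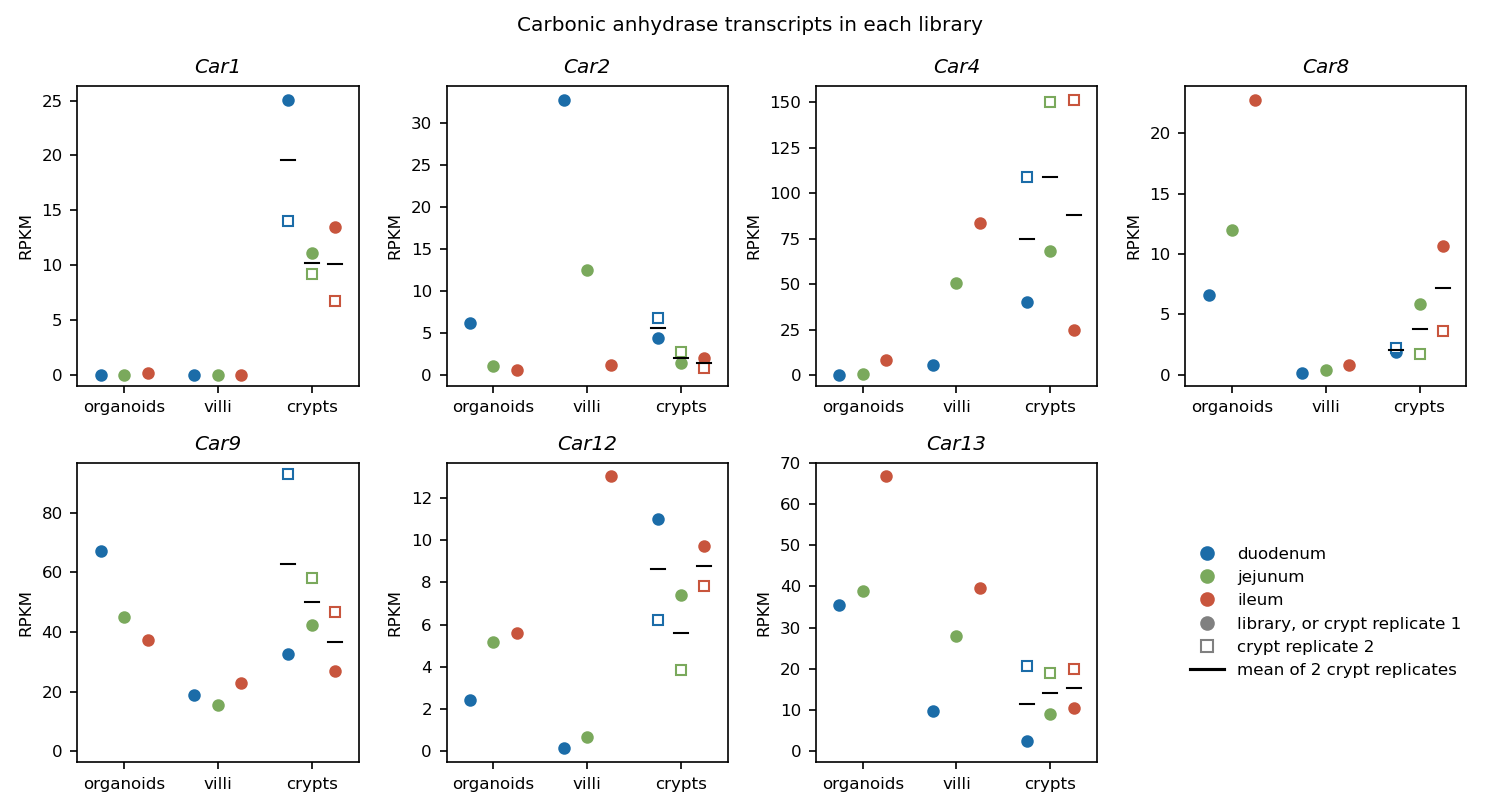
Points give the RPKM of each gene in each library (linear axes that differ between panels), by tissue and coloured by origin; crypts show replicate 1 filled, replicate 2 open and their mean as a bar. Car1 is near 0 outside crypts, Car4 at most 8.0 RPKM in organoids and Car8 under 1 RPKM in villi.

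Over all 12 libraries, tissues were compared in an additive limma model of tissue and origin, in which the 3 origins serve as replicates. Its standard errors and p-values therefore rest on regional steps that differ between tissues and on differences between the 2 crypt libraries of an origin. Organoids minus crypts gave log2 differences of -3.65 for Car1 (SE 0.29) and -4.96 for Car4 (SE 0.73), and of 1.54 for Car8 (SE 0.33) and 1.89 for Car13 (SE 0.48). Car1 and Car4 had 0 reads in some organoid libraries, so their sizes depend on the 1 RPKM added before the logarithm. Over 20 other settings they ranged from -7.72 to -3.32 for Car1 and from -6.50 to -4.11 for Car4. Car2 differed by -0.33 (SE 0.40) and Car12 by -0.68 (SE 0.50). Car9 differed by 0.07 (SE 0.34), a sign that turned to -0.22 when RPKM were rescaled to reads in genes, to -0.11 without duodenal crypt library 1, to -0.07 without ileal crypt library 1 and to -0.08 without duodenal organoids. It was -0.38 with crypts numbered 2 alone and 0.52 with crypts numbered 1 alone, so 0.07 lies between opposite differences from the 2 crypt sets. At an adjusted p under 0.05, 23.4% of 11690 genes tested were called higher in organoids and 24.2% lower, and 2 of the 7 members were called higher and 2 lower. The same 4 members were called with crypts numbered 1 alone and with crypts numbered 2 alone. The members' median difference was -0.33, against 0.00 for all genes.

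Villi minus crypts gave differences of -3.73 for Car1 (SE 0.29), -1.66 for Car8 (SE 0.33), -1.24 for Car9 (SE 0.34) and -1.47 for Car12 (SE 0.50). Car1 had 0 reads in villi, so its size depends on the added 1 RPKM, and 20 other settings gave -8.51 to -3.41. Car2 differed by 1.49 (SE 0.40), Car4 by -1.32 (SE 0.73) and Car13 by 0.91 (SE 0.48). Of all genes, 20.5% were called higher in villi and 32.8% lower, and the members held 1 called higher, Car2, and 4 called lower. With crypt replicate number as a block, 23.9% of genes were called higher and Car13 joined Car2 (SE 0.29). The members' median difference was -1.32, against -0.20 for all genes. Since the members were chosen with these values in view, nothing is read from these counts.

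Several of these calls changed when 1 library was left out. Over all genes, 4608 were called without duodenal villi and 4766 without jejunal villi, in place of 6237. Without duodenal villi, Car12 in villi minus crypts was -0.82, Car2 1.12 and Car9 -1.07, and without jejunal villi they were -1.14, 1.11 and -1.08, none then past the threshold. Car12 was also not called with median ratio scaling (-1.28), without the filter on low values (-1.47, SE 0.57) or with crypts numbered 2 alone (-1.17). Car4 was called without ileal crypt library 1 (-1.89), with crypts numbered 2 alone (-2.18) and with scaling to reads in genes (-1.68), while its difference was -0.46 without duodenal villi (SE 0.82) and -0.47 with crypts numbered 1 alone (SE 0.69). Car13 was called without duodenal crypt library 2 (1.27), with crypts numbered 1 alone (1.66) and with median ratio scaling (1.28), while its difference was 0.17 with crypts numbered 2 alone (SE 0.33) and 0.58 with scaling to reads in genes (SE 0.39).

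**Figure D3:**
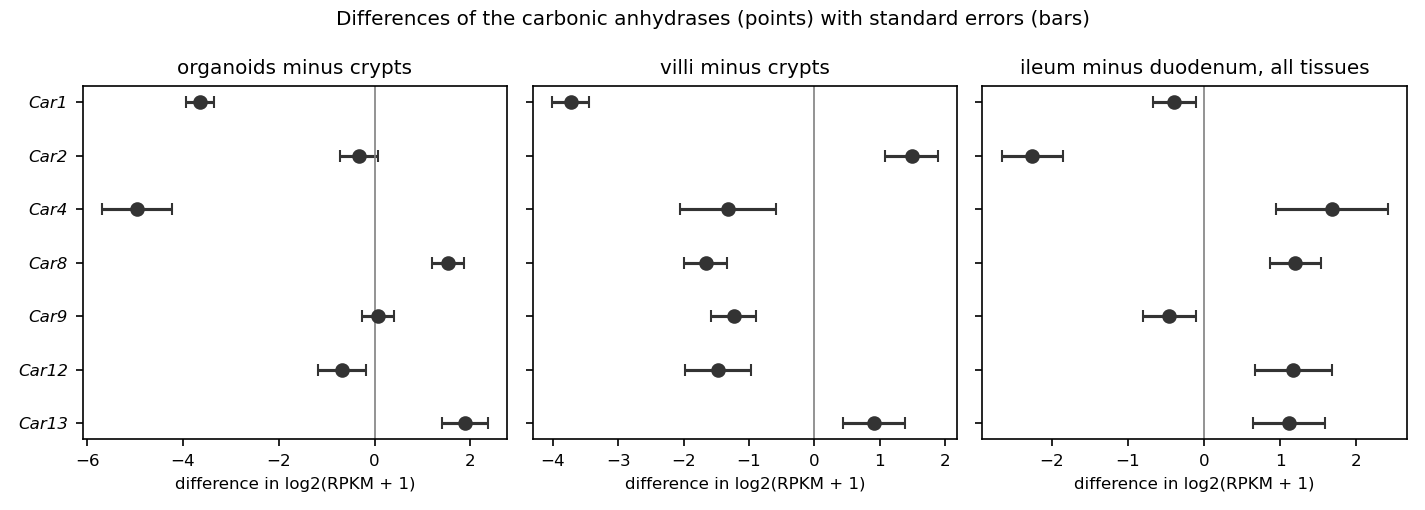
Points give each gene's difference in log2(RPKM + 1) and bars its standard error from the limma model, for organoids minus crypts, villi minus crypts and ileum minus duodenum over all tissues. Car1 and Car4 lie at -3.65 and -4.96 in organoids minus crypts, and Car2 at -2.26 in ileum minus duodenum.

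The choice of scaling moved the midpoint of the villus comparison. The median of all genes in villi minus crypts was -0.20 as deposited, -0.43 with scaling to reads in genes and 0.03 with median ratio scaling, and called genes were higher in 38.5%, 26.4% and 54.9% of cases in that order. In organoids minus crypts 49.2% of called genes were higher as deposited and 36.9% with scaling to reads in genes, at medians of 0.00 and -0.17. Relative to the median of all genes under each of the 3 scalings, the villus difference was 1.64 to 1.78 for Car2, 1.01 to 1.25 for Car13, -1.25 to -0.99 for Car4 and -1.16 to -0.89 for Car9. It was -3.64 to -3.48 for Car1, a size that depends on the added 1 RPKM, -1.53 to -1.44 for Car8 and -1.31 to -1.28 for Car12.

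Along the intestine, ileum minus duodenum over all 3 tissues gave -2.26 for Car2 (SE 0.40), 1.68 for Car4 (SE 0.73), 1.20 for Car8 (SE 0.33), 1.17 for Car12 (SE 0.50) and 1.11 for Car13 (SE 0.48). Car1 differed by -0.39 (SE 0.29) and Car9 by -0.46 (SE 0.34). Crypts weigh more in these averages than organoids or villi, since they have 2 libraries per origin. Car1 had 0 reads in villi and in duodenal and jejunal organoids, so its value comes almost only from crypts. In crypts, organoids and villi the differences were -0.10, 3.17 and 3.75 for Car4, and 0.06, 0.94 and 3.61 for Car12. Of all genes, 0.47% were called higher in ileum and 0.205% lower, and of the members Car2 was called lower and none higher. With crypt replicate number as a block, 1.88% were called higher and 0.71% lower, and Car8 was then called higher as well (SE 0.26). The call of Car2 was lost without duodenal crypt library 2 (-2.28, SE 0.46), duodenal organoids (-2.19, SE 0.47), jejunal organoids (-2.26, SE 0.42) or duodenal villi (-1.98, SE 0.43), and without the filter on low values (-2.26, SE 0.44). The members' median was 1.11, against 0.06 for all genes.

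The crypts alone, with replicates inside each origin, gave ileum minus duodenum differences of 1.28 for Car8 (SE 0.60), 0.83 for Car13 (SE 0.86), 0.06 for Car12 (SE 0.45), -0.63 for Car9 (SE 0.59) and -0.90 for Car1 (SE 0.47). Under limma 0.036% of 11124 genes were called in either direction, 4 genes in all with 466 at an unadjusted p under 0.05, and none of the 7 members. With the replicate block 0.333% were called, again without a member, and limma-voom on recovered reads called 1 gene and no member. Under the block the standard errors were smaller, at 0.44 for Car8, 0.47 for Car13, 0.30 for Car12, 0.32 for Car9 and 0.30 for Car1. They were 0.38 for Car4 and 0.40 for Car2, whose differences in crypts are given above. The sign of Car12 turned to -0.07 with scaling to reads in genes, to -0.30 without duodenal crypt library 2 and to -0.08 without ileal crypt library 1. Car9 turned to 0.11 without duodenal crypt library 2 and Car13 to -0.48 without duodenal crypt library 1. Leaving out 1 library also unbalances the replicate numbers, between which these genes differed. Among libraries of the same number, Car9 was lower in ileum than in duodenum for both numbers. Car12 and Car13 differed in direction between the numbers.

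**Figure D4:**
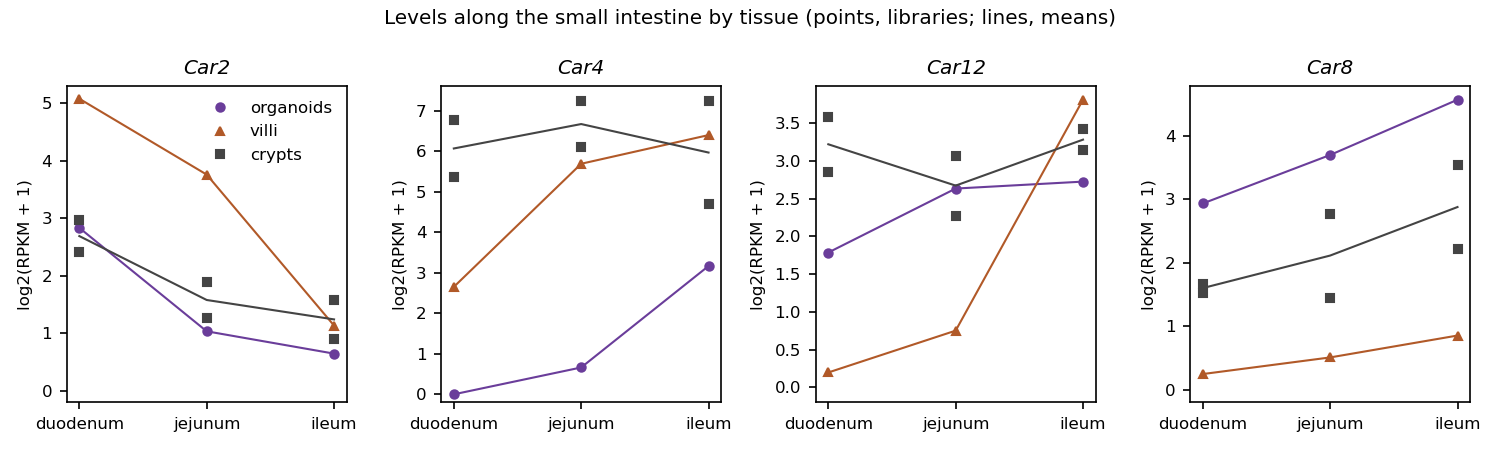
Points give log2(RPKM + 1) of Car2, Car4, Car12 and Car8 in each library along duodenum, jejunum and ileum, and lines join the means of organoids, villi and crypts. The means of Car2 step down in all 3 tissues, while those of Car4 step up in organoids and villi but not in crypts.

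Within crypts several members differed between the replicate numbers in the same direction at all 3 origins, beside the enterocyte markers given above. Library 2 exceeded library 1 by 1.42, 1.13 and 2.56 in duodenum, jejunum and ileum for Car4 on the log2(RPKM + 1) scale. The same differences were 2.62, 0.99 and 0.86 for Car13 and 1.48, 0.45 and 0.78 for Car9. Car1 differed by -0.80, -0.25 and -0.90, and Car12 by -0.73, -0.79 and -0.28. Car8 differed by 0.14, -1.32 and -1.33, and Car2 by 0.55, 0.63 and -0.68. The median enterocyte marker differed by 3.47, 3.53 and 3.12 and the median stem cell marker by -0.14, -1.22 and -1.20. The median Paneth cell marker differed by -1.98, -0.99 and -1.61 and the median goblet cell marker by 0.76, 0.37 and 1.29. Car4, Car9 and Car13 thus shared the direction of the enterocyte and goblet cell medians, and Car1 and Car12 that of the stem and Paneth cell medians. The goblet cell list itself was mixed, since Spink4 fell from library 1 to library 2 at all 3 origins while Tff3 and Agr2 rose. Its sum went from 5691 to 5395 RPKM in duodenum, 8944 to 8938 RPKM in jejunum and 16440 to 26139 RPKM in ileum. The part of cell mixture in these differences was not tested.

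Markers of other cells were also read in every library. The Paneth cell list, 9 genes matched, summed to 8002 to 31442 RPKM in organoids, 71.1 to 1067 RPKM in villi and 2144 to 69938 RPKM in crypts. The goblet cell list, 6 genes, summed to 15690 to 35430 RPKM in organoids, 11239 to 23961 RPKM in villi and 5395 to 26139 RPKM in crypts. Enteroendocrine markers, 6 genes, summed to 719 to 2293 RPKM in organoids, 305 to 509 RPKM in villi and 93.5 to 304 RPKM in crypts, and tuft cell markers, 5 genes, to 3.30 to 7.02, 16.3 to 23.9 and 5.93 to 12.5 RPKM in the same order of tissues. Lymphocyte markers, 6 genes, summed to 0 to 0.151 RPKM in organoids, 25.5 to 50.2 RPKM in villi and 0.182 to 1.52 RPKM in crypts. Pancreatic acinar markers, 6 genes, reached 33.6 RPKM in organoids, 11.6 RPKM in villi and 9.91 RPKM in crypts, but in organoids Ela1 carried nearly all of the sum, at 20.7 to 33.6 RPKM, and the other 5 genes were at most 0.124 RPKM. Brunner gland and stomach markers, 5 genes, were 48.6 RPKM in duodenal organoids and 26.0 RPKM in duodenal crypt library 2, against at most 0.427 RPKM in villi and 5.85 RPKM in the other organoids. Tff2 alone held 48.0 RPKM of the sum in duodenal organoids and 23.2 RPKM in that crypt library, and Tff1, Muc5ac and Muc6 were at 0 in duodenal organoids.

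Of the other 9 family genes 3 passed the filter of the test, Car7 and the membrane-associated enzymes Car14 and Car15. Car14 had 0.714 to 1.31 RPKM in organoids, 2.16 to 2.40 RPKM in villi and 3.0 to 9.93 RPKM in crypts. It fell in organoids (log2 difference -1.67, SE 0.28, limma adjusted p = 0.00042) and in villi (-0.90, SE 0.28, limma adjusted p = 0.016). The villus call of Car14 was lost without duodenal villi (-0.84, limma adjusted p = 0.078) or jejunal villi (-0.84, limma adjusted p = 0.079), with crypts numbered 2 alone (-0.58, limma adjusted p = 0.089) and with median ratio scaling (-0.62, limma adjusted p = 0.13). Car15 had 0.251 to 0.779 RPKM in organoids, 1.34 to 2.21 RPKM in villi and 1.73 to 5.15 RPKM in crypts. It fell in organoids (-1.40, SE 0.28, limma adjusted p = 0.0013) and differed by -0.58 in villi (SE 0.28, limma adjusted p = 0.091, and 0.021 with the replicate block). Car7, a cytosolic form known from brain, rose in villi (0.80, SE 0.20, limma adjusted p = 0.0047; 0.058 without duodenal villi) at 0.0944 to 0.300 RPKM in organoids, 0.537 to 1.94 RPKM in villi and 0 to 0.696 RPKM in crypts.

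Car3, the form known from muscle and fat, was not tested, because fewer than 3 of the 12 libraries reached the required reads. It had 0.200, 1.17 and 5.72 RPKM in villi of duodenum, jejunum and ileum, at most 0.0604 RPKM in organoids and at most 0.0731 RPKM in crypts. The summed level of 6 smooth muscle markers in the same villi was 28.8, 49.8 and 90.6 RPKM, against 0.594 to 1.91 RPKM in organoids and 1.15 to 9.46 RPKM in crypts, and their part in the Car3 signal was not tested. Car11, a form without catalytic activity, reached 0.756 RPKM in organoids, 0.0573 RPKM in villi and 0.923 RPKM in crypts. Car6, a secreted form of saliva, reached 0.540 RPKM in organoids and at most 0.0789 RPKM elsewhere. The mitochondrial forms Car5a and Car5b stayed at or under 0.187 RPKM in every library, and Car10 had 0 reads throughout.

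The transporters that use the products of the reaction were read from 5 lists. Like the members, these lists were chosen with earlier results of these data known, so their counts and medians are a description. They stand beside 23.4% of all genes called higher and 24.2% lower in organoids, and 20.5% higher and 32.8% lower in villi. Among chloride-bicarbonate exchangers, 3 of 8 genes could be tested. In organoids 0 rose and 2 fell, with a list median of -1.01 against 0.00 for all genes, and in villi 1 rose and 0 fell, with a list median of 0.20 against -0.20, or of -0.16 with scaling to reads in genes. Slc4a2, the basolateral exchanger, fell in organoids (-1.92, SE 0.27, limma adjusted p = 0.00013), at 2.95 to 5.60 RPKM in organoids against 13.8 to 24.0 RPKM in crypts. Slc26a3, the apical exchanger of salt absorption, also fell in organoids (-1.0, SE 0.33, limma adjusted p = 0.024), a call lost without duodenal (limma adjusted p = 0.14) or ileal organoids (limma adjusted p = 0.11) and with crypts numbered 1 alone (limma adjusted p = 0.093). Slc26a6, an apical exchanger for bicarbonate, rose in villi (2.90, SE 0.58, limma adjusted p = 0.0011), at 175 to 192 RPKM in villi against 7.33 to 57.8 RPKM in crypts. Of 5 matched sodium-bicarbonate cotransporters 3 were tested. Slc4a8 alone rose in villi, by 0.21 at no more than 0.245 RPKM (SE 0.08, limma adjusted p = 0.04999, and 0.052 with the replicate block, a call also lost without any of 10 of the 12 libraries), and none was called in organoids, where Slc4a4, the main basolateral form, differed by -0.53 (SE 0.22, limma adjusted p = 0.067, and 0.037 with the replicate block).

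All 9 sodium-proton exchangers and scaffolds were tested. In organoids 1 rose and 6 fell, with a list median of -1.04 against 0.00 for all genes, and in villi 4 rose and 1 fell, with a list median of 0.09 against -0.20, or of -0.07 with scaling to reads in genes. The scaffold Slc9a3r1 fell in organoids (-2.43, SE 0.58, limma adjusted p = 0.0041). In villi the apical exchangers Slc9a3 (3.07, SE 0.28, limma adjusted p = 5.2e-06) and Slc9a2 (3.01, SE 0.34, limma adjusted p = 1.7e-05) rose together with the apical scaffold Pdzk1 (3.84, SE 0.71, limma adjusted p = 0.00069). Slc9a3 had 0.291 to 0.713 RPKM in organoids, 5.60 to 23.3 RPKM in villi and 0.0782 to 2.47 RPKM in crypts.

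Of the 10 channels, cotransporters and pumps of secretion 8 were tested, and in organoids 1 rose and 4 fell while in villi 1 rose and 4 fell, or 3 rose and 4 fell with median ratio scaling, beside the same shares of all genes. The list medians were -0.90 in organoids against 0.00 for all genes and -0.80 in villi against -0.20. Slc12a2, which loads chloride into secreting cells, fell in villi (-3.44, SE 0.37, limma adjusted p = 1.4e-05), at 30.3 to 37.9 RPKM in organoids, 0.561 to 1.37 RPKM in villi and 10.7 to 35.5 RPKM in crypts. The potassium channel subunits Kcnq1 (-3.25, SE 0.36, limma adjusted p = 1.6e-05) and Kcne3 (-4.35, SE 0.49, limma adjusted p = 1.8e-05) fell in villi too, and the chloride channel Clcn2 rose there (1.83, SE 0.32, limma adjusted p = 0.00044). In organoids Clcn2 (-1.21), Kcnq1 (-1.12) and Kcne3 (-1.49) fell, and each of these calls was lost without ileal organoids (limma adjusted p = 0.071, 0.21 and 0.11). Without jejunal organoids the calls of Kcnq1 and Kcne3 were lost too (limma adjusted p = 0.055 and 0.15). With the replicate block 3 genes of this list rose in villi, Atp1b1 among them (0.76, limma adjusted p = 0.016). In proton-coupled lactate transport, 4 of 4 tested, Slc16a3 rose (2.27, SE 0.64, limma adjusted p = 0.0091; 0.082 without duodenal villi) and Slc16a7 fell (-0.46, SE 0.14, limma adjusted p = 0.017; 0.12 without ileal villi) in villi, and none was called in organoids, where the transporter chaperone Bsg differed by 0.88 (SE 0.44, limma adjusted p = 0.11, and 0.016 with the replicate block).

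Car9 was set beside 12 hypoxia-inducible genes, all tested, a list also chosen with earlier results of these data known. In organoids 5 rose and 1 fell, with a list median of 0.75 against 0.00 for all genes, and in villi 6 rose and 1 fell, with a list median of 0.85 against -0.20. Over all genes 23.4% were called higher and 24.2% lower in organoids, and 20.5% higher and 32.8% lower in villi. With scaling to reads in genes, 5 rose and 2 fell in organoids, at a list median of 0.55, and 4 rose and 2 fell in villi. With median ratio scaling, 5 rose and 1 fell in organoids, and 7 rose and 0 fell in villi. Bnip3, a mitophagy receptor, rose in organoids (2.62, SE 0.28, limma adjusted p = 2.5e-05), at 6.37 to 9.78 RPKM in organoids, 1.17 to 2.07 RPKM in villi and 0 to 1.60 RPKM in crypts. Pdk1, which limits entry of pyruvate into the mitochondrial cycle, rose in organoids as well (1.61, SE 0.29, limma adjusted p = 0.00068). Ankrd37 (2.02) and Ndrg1 (0.97) were also called higher in organoids. The call of Ankrd37 was lost without duodenal organoids (limma adjusted p = 0.11). That of Ndrg1 was lost without jejunal or ileal organoids and with crypts numbered 2 alone (limma adjusted p = 0.064, 0.051 and 0.052). In villi the growth factor gene Vegfa (1.38, SE 0.26, limma adjusted p = 0.00066), the peptide hormone gene Adm (1.15, SE 0.23, limma adjusted p = 0.0012) and the oxygen sensor gene Egln3 (2.55, SE 0.63, limma adjusted p = 0.0042) rose. Car9 itself differed by 0.07 in organoids and -1.24 in villi, as given above.

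Between ileum and duodenum over all tissues, limma called 0 of the 42 tested genes of the 7 lists, with 4 at an unadjusted p under 0.05. Slc9a3 (-1.20, SE 0.28, limma adjusted p = 0.076) was the single gene of these lists called lower in ileum by limma-voom (limma adjusted p = 0.035) and with the replicate block (limma adjusted p = 0.032). In crypts alone limma called 0 of 38 with 1 at an unadjusted p under 0.05, and limma-voom and the block called 0.

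By likeness over the 12 libraries, the genes closest to each member were named by Pearson's r of log2(RPKM + 1), as a description across libraries that share tissues and origins. Car1 was followed most closely by Rangap1, Hist1h2ac (now H2ac6) and Terf2 (r = 0.99, 0.99 and 0.98). Car2 was followed by Otop3, Ppm1l and Pcp4l1 (0.91, 0.90 and 0.87), and Car4 by Fblim1, Pbx2 and 1300012G16Rik, now Plbd2 (0.95, 0.94 and 0.93). Car8 was followed by Ptpro, Zfp59 and Pla2g5 (0.97, 0.96 and 0.96), and Car9 by Ssr1, St7 and Mrpl51 (0.95, 0.94 and 0.93). Car12 was followed by Nr2f2, Snx30 and 4930403C10Rik, now Fam83e (0.91, 0.91 and 0.89), and Car13 by Rap1a, 1110067D22Rik (now Lgalsl) and Hsdl2 (0.94, 0.94 and 0.94). Ptpro had 1.75 to 3.10 RPKM in organoids, 0.0302 to 0.0653 RPKM in villi and 0.299 to 2.46 RPKM in crypts, and Otop3 reached 3.89 RPKM in organoids, 23.5 RPKM in villi and 7.14 RPKM in crypts.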

How the data were processed

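The authors deposited 1 RPKM value for each transcript in each library (per the file headers). Per the labels' protocols, RNA was prepared with Trizol LS, selected for poly(A) and sequenced to 50 bp with a SOLiD 4 instrument. Per the submitters' processing notes, reads were aligned with BWA to mm9. Versions, gene models, use of strand, treatment of reads that match several paralogs or overlapping genes, and whether coordinates count from 0 or 1 were not given in the sources used here. Keeping the transcript of greatest exon length left 19012 symbols of 21247 transcripts. At least 99.967% of values were whole reads within 0.02 of a read, so reads were recovered.

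Genes with 10 reads, scaled to median depth, in no fewer than 3 of 12 libraries (2 of 6 crypt libraries) and 15 reads in total were tested with limma 3.58.1 in R 4.3.3, on log2(RPKM + 1) values with a mean-variance trend, which understates changes of low genes. The model had tissue and origin, or 1 mean per origin in crypts, and left 7 and 3 residual degrees of freedom. Tests are two-sided, with Benjamini-Hochberg adjustment across the whole table and a threshold of 0.05. The fit over 12 libraries recovered most of the changes set in simulated data. These had a fixed spread and no replicate effect, so they do not show how many changes would be found in these libraries. Ratios between single libraries carry exact conditional 95% intervals from reads, and the floor for 0 is 3 reads per library.

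Members, 7 gene lists (57 of 58 symbols matched) and 11 marker lists (74 of 78 matched) were chosen with earlier results of these data known. Named are the members, up to 4 called genes per list and comparison with the smallest adjusted p or up to 2 of the highest level, and the 3 genes of highest r per member; some listed genes are counted but not reported here by name. Crypt libraries carry the numbers 1 and 2 at each origin in their titles. Differences between library 2 and library 1 over 11124 genes correlated at 0.42 (duodenum and jejunum), 0.51 (duodenum and ileum) and 0.79 (jejunum and ileum), each over 0.1, so the numbers were taken to pair the samples. Alternatives were a pseudocount of 0.1, no filter, 2 scalings, limma-voom on recovered reads, the replicate block, crypts of 1 number alone, another transcript per symbol and leaving out each library.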

Additional observations from a re-analysis of the deposited data

Results flagged for a closer look

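Car9 and Car12 ran in opposite directions between groups, and none of these differences between groups was tested. For Car9, ileum minus duodenum was -0.84 in organoids and 0.26 in villi on the log2(RPKM + 1) scale, and ileum minus jejunum was -0.27 in organoids and 0.52 in villi. Each of these compares 1 library with 1 library. For Car12, villi minus crypts was -3.02 in duodenum, -1.92 in jejunum and 0.53 in ileum, with 1 villus library and 2 crypt libraries at each origin, and the villus library lay outside the range of both crypt libraries at all 3 origins.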

How the results depend on the processing

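The replicate block, which fits crypt replicate number, gave 7019 genes called in villi against crypts in place of 6237, 6554 in organoids against crypts in place of 5572, 303 in ileum against duodenum over all tissues in place of 79, and 37 in crypts alone in place of 4. Of the members it changed the calls of Car13 in villi and of Car8 in ileum against duodenum, and no other. In ileum against duodenum, 17 genes were called without the filter on low values and 122 with limma-voom, and 35 to 99 with 1 library left out, lowest without ileal villi (35) or duodenal villi (36), followed by jejunal organoids (42), ileal crypt library 2 (44), duodenal crypt library 2 (45) and jejunal villi (47). In crypts alone 1 was called with a pseudocount of 0.1, 1 with limma-voom, 0 without the filter (690 at an unadjusted p under 0.05) and 0 to 6 with 1 library left out, with 0 without either duodenal or either jejunal library (346 to 1086 at an unadjusted p under 0.05) and 1 without ileal library 2. The counts in villi were 4608 to 6631 and in organoids 3574 to 6357 with 1 library left out, lowest without duodenal villi and without ileal organoids, and other settings kept both within 1.5 times. Crypts numbered 1 alone gave 45.3% of villus calls as higher, and crypts numbered 2 alone gave 32.7%, while of organoid calls they gave 57.2% and 41.3% as higher, in that order, in place of 49.2%. Of 490 values of member differences under other settings, 472 moved by less than the residual SD, 12 changed sign, none of them a called value, and 22 changed side of the threshold. Car9 in organoids against crypts changed sign in 5 settings. Of 680 values of the 34 named calls in other genes, 638 stayed called in the same direction, 42 lost the call and 0 reversed. Another transcript moved the mean of Car1 to 6.81 RPKM in place of 6.65 RPKM. With 1 library per origin, organoid and villus levels have no replicate at an origin.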
